A study of Drosophila erecta with 23 samples.

Results

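Transcription start site clusters (TSCs) concentrated at 15-19 h are promoters that had most of their activity within a few hours of late embryogenesis in *Drosophila erecta*. RAMPAGE, which sequences 5′-complete cDNAs made from capped transcripts, gives the position of each promoter and, through its read number, its activity. A TSC is a group of neighbouring transcription start sites, and its activity is given in RPM, the number of its reads for every 1000000 reads that fell in any TSC of that library. The members were chosen from the measured values themselves. A TSC assigned to a gene was taken if its maximum reached 20 RPM and more than 60% of its summed RPM lay in the 4 libraries of 15-16, 16-17, 17-18 and 18-19 h, over the 20 libraries that remained when 4-5, 5-6 and 7-8 h were left out. This gave 137 TSCs of 130 genes, which was 1.87% of the 7323 gene-assigned TSCs that reached 20 RPM in the same libraries (called expressed below), 1.03% of the 13329 gene-assigned TSCs and 0.605% of all 22632 TSCs. The concentration at 15-19 h is therefore the choice and not a finding.

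The samples were whole wild-type embryos of the reference genome strain, collected from population cages in windows of 1 h between 0-1 h and 22-23 h after egg laying, with 1 library at each of the 23 windows. There was no treatment, and no hour had a replicate. No batches are named, and all samples shared 1 sequencing lane. Whole embryos hold all tissues, so a fall in RPM through fewer cells of a type cannot be told apart from less RNA per cell. The 4 libraries of 15-19 h held 3703729, 8377101, 1579156 and 9148162 reads in TSCs in order of time, and this depth ranged over the 23 libraries from 142224 at 7-8 h to 13882184 at 0-1 h.

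As background, the hours before hatching are those in which the fly embryo finishes its larval organs. The epidermis secretes the layers of the larval cuticle, the tracheal tubes mature and fill with gas, the muscles assemble sarcomeres and come under nervous control, and the gut and fat body take on larval functions. Genes for secreted structural proteins of such tissues are known in flies to be transcribed strongly and briefly, and related genes of this kind often lie next to each other. Core promoters that start transcription within a narrow window are known in flies to be frequent among tissue-restricted genes, while broad ones are frequent among genes that every cell uses. The tables used here do not pair the *D. erecta* gene identifiers with names: of the 130 genes, 0 matched the reference table of names. The promoters below are therefore named by scaffold, start, end and strand in FlyBase release 1.3 of the *D. erecta* genome, and no function is given to any of them. The fixed lists of cuticle, muscle, neuronal, tracheal, blood cell, fat body and gut genes could not be applied for the same reason, so the tissue of origin was not examined.

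The 137 TSCs spanned a wide range of strength. Their maxima ran between 21.5 and 47565 RPM, with a median of 208 RPM and quartiles of 88.8 and 504 RPM. Of them, 116 reached 50 RPM, 96 reached 100 RPM and 22 reached 1000 RPM. The number of reads behind the maximum was between 34 and 75113, with a median of 1065, so for most of them counting error was small beside the change over time. The share of summed RPM in the 4 h window had a median of 75.2% and a highest value of 91.1%, with 93 TSCs above 70%, 46 above 80% and 2 above 90%. The TSCs just inside the limit of 60% had shares of 60.3%, 60.5% and 60.6%, and those just outside had 59.8%, 59.7% and 59.6%. At the limit of level, the 3 lowest maxima inside were 21.5, 21.5 and 21.6 RPM, and the 3 highest outside, among TSCs with the same concentration, were 19.9, 19.5 and 18.4 RPM. Both limits cut through a continuous range of values.

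**Figure D1:**
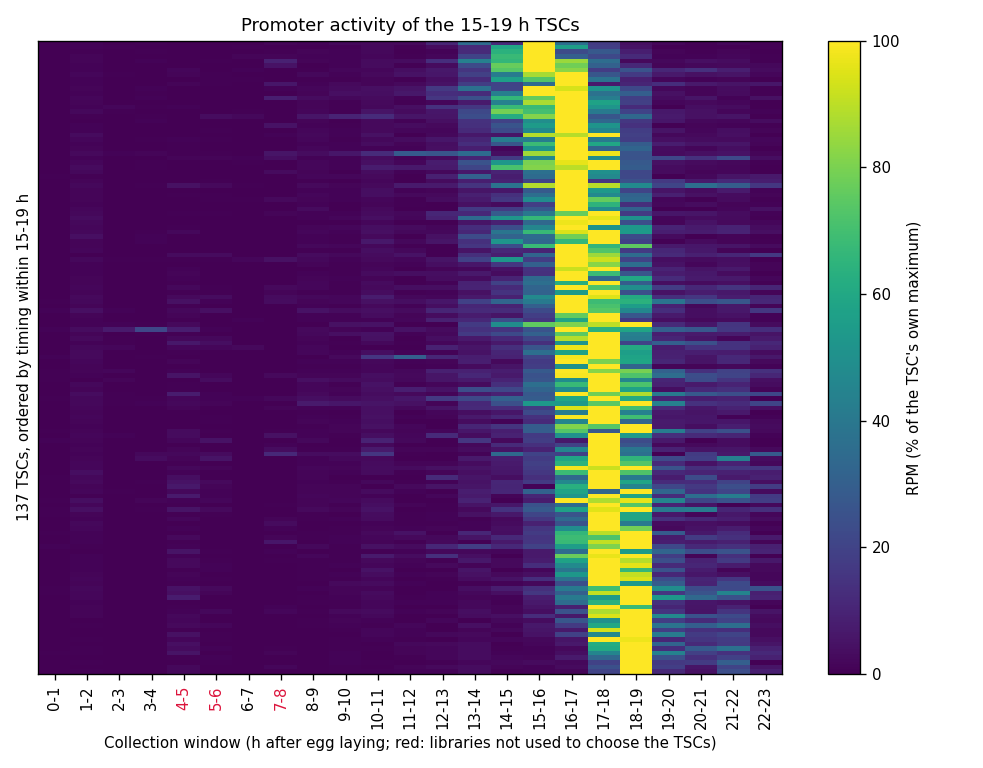
Activity of each of the 137 TSCs (rows, ordered by the mean hour of their RPM within 15-19 h) in each of the 23 one-hour libraries (columns), as a percentage of the TSC's own maximum over the 20 libraries used to choose them. The bright block at 15-19 h is the choice; within it the maximum moves to later hours down the page, and 55 TSCs, the most for any hour in RPM, were highest at 17-18 h (with TMM factors 18-19 h had the most, 49).

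Within the window the maxima were spread unevenly. There were 9 TSCs with their maximum in the library of 15-16 h, 44 in that of 16-17 h, 55 in that of 17-18 h and 29 in that of 18-19 h. Most pulses were short: 25 TSCs had 1 library at 50% of their maximum or more, 54 had 2, 50 had 3, 7 had 4 and 1 had 5. That last one, at 4770:2409767-2409784 on the + strand, had 60.1, 75.9, 114, 110 and 58.3 RPM at 14-15, 15-16, 16-17, 17-18 and 18-19 h and only 1.79 RPM at 19-20 h. The assignment of a peak hour to 17-18 or 18-19 h depended on the scaling. TMM factors, which align the bulk of the TSCs between libraries, raised the values at 18-19 h by 0.69 on the log2 scale and those at 15-16 h by 0.04, and then 8 TSCs were highest in the library of 15-16 h, 43 in that of 16-17 h, 37 in that of 17-18 h and 49 in that of 18-19 h.

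The rise was steep and the end was steeper. At 15-16 h 127 of the 137 TSCs were higher than at 14-15 h (92.7%, against 43.1% of the 7323 expressed gene-assigned TSCs), and 124 were higher at 16-17 h than at 15-16 h (90.5%, against 53.3%). The median ratio of the later to the earlier hour was 220% for the first of these steps and 270.5% for the second. A rise of at least 5-fold within 1 h was seen for 20 TSCs (14.6%) in the library of 15-16 h and 22 (16.1%) in that of 16-17 h. It was seen for 13 (9.49%) in that of 17-18 h and 1 (0.730%) in that of 18-19 h. The expressed TSCs gave 5.41, 2.06, 2.57 and 4.62%. With TMM factors the members' counts became 32, 24, 12 and 4 (23.4, 17.5, 8.76 and 2.92%). The expressed TSCs then gave 6.88, 2.28, 2.51 and 7.39%, so at 18-19 h the members were below them on both scales. At 17-18 h 81 were higher than at 16-17 h (59.1%, against 30.3% of the expressed TSCs). At 18-19 h 98 were lower than at 17-18 h in RPM (71.5%, against 57.0%), but with TMM factors 73 were lower (53.3%, against 25.8%), so that step has no clear direction. At 19-20 h 135 of the 137 were lower than at 18-19 h (98.5%, against 67.0% of the expressed TSCs). A fall of at least 5-fold was seen for 71 (51.8%, against 8.43%). With TMM factors 135 were again lower (98.5%, against 72.6%), 78 of them at least 5-fold (56.9%, against 9.23%). In RPM the median TSC kept 18.9% of its level across that hour. The rule favours such a rise and fall, so these shares are a description.

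The decline was not even afterwards. The median level, as a percentage of the TSC's own mean over 15-19 h, was 16.2, 10.5, 12.6 and 3.97% in the last 4 libraries. At 21-22 h 79 of 137 TSCs (57.7%) were higher than in both neighbouring hours, against 25.9% of the expressed gene-assigned TSCs. With TMM factors the shares were 64.2% and 40.1%. At 22-23 h 119 members (86.9%) were lower than at 21-22 h, 43 of them (31.4%) at least 5-fold, against 42.8% and 6.75% of the expressed TSCs. With TMM factors 121 were lower and 57 at least 5-fold, against 56.4% and 8.21%.

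**Figure D2:**
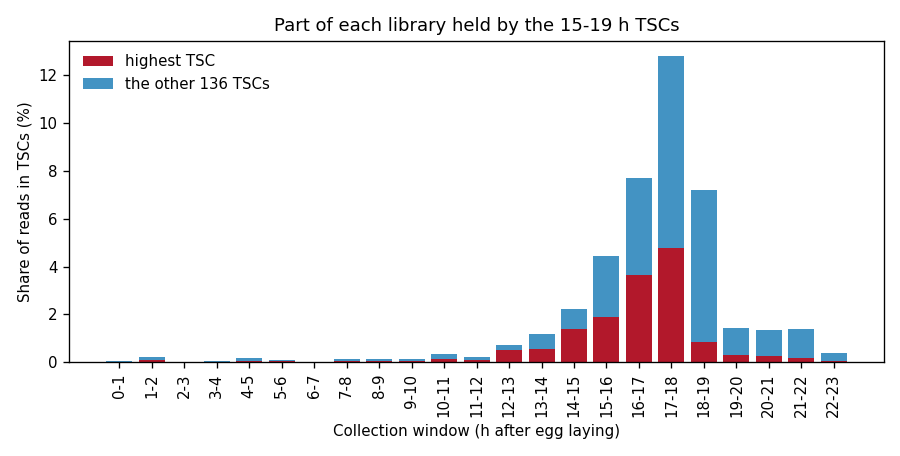
Share of all reads in TSCs (percent, linear axis) that fell in the 137 TSCs, for each one-hour library, split into the highest TSC (red) and the other 136 (blue). The total was 12.8% at 17-18 h, 7.72% at 16-17 h and 7.21% at 18-19 h, and the red part shrank to 0.829% at 18-19 h.

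Together the 137 promoters took up a sizeable part of the reads in TSCs for 3 h. Their share of the reads in TSCs was 0.712, 1.16 and 2.23% in the 3 libraries of 12-15 h. In the window it was 4.43, 7.72, 12.8 (95% Wilson interval 12.77% to 12.87%) and 7.21%, and in the last 4 libraries 1.43, 1.33, 1.40 and 0.370%. Before 12-13 h it stayed at or under 0.354%, the value at 10-11 h. A few promoters made up most of this: 1 TSC held 34.6% of the members' RPM over 15-19 h, the highest 5 held 59.2% and the highest 15 held 74.9%. The weight moved within the window, since the highest TSC gave 47.3% of the members' reads at 16-17 h and 37.1% at 17-18 h but 11.5% at 18-19 h. The 434 TSCs chosen by the same rule at 19-23 h held 3.58, 3.64, 15.4 and 31.0% of the reads in the 4 libraries of 15-19 h. That was less than the members at 15-16 and 16-17 h and more than the members at 17-18 and 18-19 h. Intervals cover counting error only, since reads copied by PCR off 1 molecule, where any were counted, are not independent.

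The strongest promoter lay at 4770:2184876-2184996 on the − strand. It had 5018, 5419 and 13851 RPM in the 3 h before the window, 19029, 36459, 47565 and 8292 RPM in the 4 h of the window, then 2906 RPM at 19-20 h and 394 RPM at 22-23 h. It was already strong hours before the window and left it early, with 5.74 times as much at 17-18 h as at 18-19 h in RPM and 3.70 times as much with TMM factors. At its maximum it had 75113 reads, and the 95% Wilson interval of the RPM was 47234 to 47898.

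The promoter in second place, at 4845:3264410-3264583 on the + strand (gene FBgn0113690), had its largest rise in RPM from 16-17 to 17-18 h. It had 320 RPM at 14-15 h, then 445, 1108, 19044 and 18570.1 RPM in the window and 2071, 2967, 3296 and 814 RPM in the 4 h that followed. The third, at 4770:430796-431187 on the + strand, formed a plateau: 347 RPM at 14-15 h was followed by 5345, 5386 and 6022 RPM at 15-16, 16-17 and 17-18 h, then by 1130.4 RPM at 18-19 h and 131 RPM at 19-20 h. The strongest TSCs thus differed in which part of the window they filled.

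Ranks 4 and 5 rose step by step to 17-18 h. At 4929:16782513-16782568 on the − strand the levels at 15-16 to 18-19 h were 1757, 3061, 5611 and 1369 RPM. At 4784:18517831-18518031 on the − strand they were 665, 2082, 4270.0 and 3361 RPM. Rank 6, at 4784:5817621-5817663 on the − strand (gene FBgn0106551), was late, with 55.9, 146, 3385 and 5613 RPM in the window and 736, 1584, 2082 and 519.9 RPM in the 4 h that followed. Ranks 2 and 6 both rose again after 19-20 h, to 3296 and 2082 RPM at 21-22 h. Rank 7, at 4845:18043308-18043412 on the + strand, had 214, 361, 4202 and 2853 RPM through the window and 438 RPM at 19-20 h.

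Rank 8, at 4770:2317507-2317575 on the + strand (gene FBgn0105424), was the one of the strongest 15 with its maximum at 15-16 h. It had 1346 and 453 RPM at 13-14 and 14-15 h, 3855, 1394, 664 and 155 RPM in the window and 63.1 RPM at 19-20 h. In RPM, ranks 10 and 13, like rank 6, were highest at 18-19 h. The promoter at 4820:5218068-5218188 on the − strand had 279, 138, 2080.2 and 2207 RPM in the 4 h of the window and 1042 RPM at 19-20 h, and that at 4784:19264916-19265040 on the − strand had 76.1, 57.9, 521 and 2668 RPM and 444 RPM at 19-20 h. Rank 11, at 4845:22232312-22232387 on the − strand, was centred on 16-17 h, with 544, 1684, 1205 and 834 RPM. The others of the strongest 15 (ranks 9, 12, 14 and 15, at 4784:10973562-10973762 +, 4784:18521286-18521450 −, 4784:3839777-3839808 + and 4845:15452912-15452997 +) had their maximum in RPM at 17-18 h, at 2036, 2053, 1344 and 1064 RPM. These peak hours depended on the scaling: with TMM factors ranks 2, 5, 7, 9, 14 and 15 were highest at 18-19 h.

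**Figure D3:**
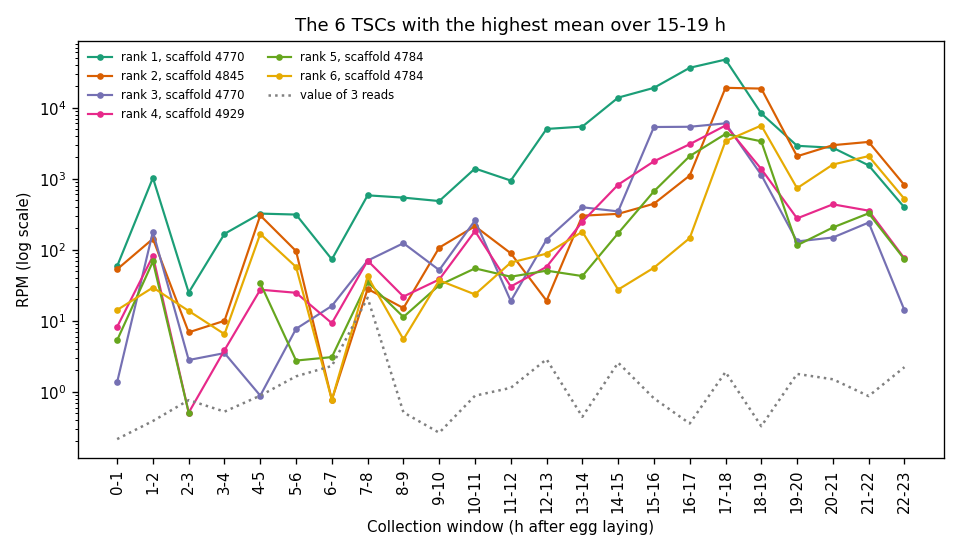
RPM (log axis) of the 6 TSCs with the highest mean over 15-19 h in each of the 23 libraries (x axis, hours after egg laying); values of 0 are not drawn and the dotted line marks the value of 3 reads in each library. Rank 1 was at 5018 RPM by 12-13 h, while ranks 2 and 6 were at 1108 and 146 RPM at 16-17 h and at 19044 and 3385 RPM at 17-18 h.

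The rule used the sum over the 4 libraries of the window and the highest value over the 20 libraries. It did not set how activity divides between the later and the earlier part of the window. This division was compared with limma on log2(RPM + 1), with the 17-18 and 18-19 h libraries as one pair and the 15-16 and 16-17 h libraries as the other. The same 4 libraries chose the members, so the p-values and calls of members are not independent of the choice. They are given as a description, and no conclusion is drawn from them. Neighbouring hours stood in for replicates, so the error includes change with time, and p-values measure only the spread between these libraries. Of 11416 TSCs with a mean of at least 2 RPM over the 4 libraries, 0 (0%) were called higher and 0 (0%) lower at a Benjamini-Hochberg adjusted p under 0.05, and thus 0 of the 137 members, all of which were tested. At an unadjusted p under 0.05 there were 2033 TSCs in all, among them 37 members higher and 17 lower at 17-19 h. On recovered reads edgeR (quasi-likelihood) also called 0 TSCs, with 1337 TSCs in all at an unadjusted p under 0.05, among them 45 members higher and 11 lower, while DESeq2 called 30 members higher and 4 lower, against 2.83% and 0.747% of the 10973 TSCs it gave an adjusted p.

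The members had been chosen for the sum of these 4 libraries and the other TSCs had not, so the shares that follow are a description, and nothing is read from their difference. Both later libraries were above both earlier ones for 53 of 137 members (38.7%), against 11% of all TSCs tested, and both were below for 22 (16.1%), against 44%. The other 62 overlapped. The median difference was 0.58 on the log2(RPM + 1) scale for the members and −0.40 for all TSCs tested, with 88 members and 3384 of 11416 TSCs above 0. With TMM factors these became 0.87 and −0.13, with 97 members and 4862 TSCs above 0. The median moved with single libraries: without 15-16 h the members' median was −0.22, without 16-17 h it was 1.38, without 17-18 h it was 0.31 and without 18-19 h it was 1.08. Without 16-17 h limma called 21 members higher (background 0.657%), and without 15-16 h it called 4 (background 0.158%).

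**Figure D4:**
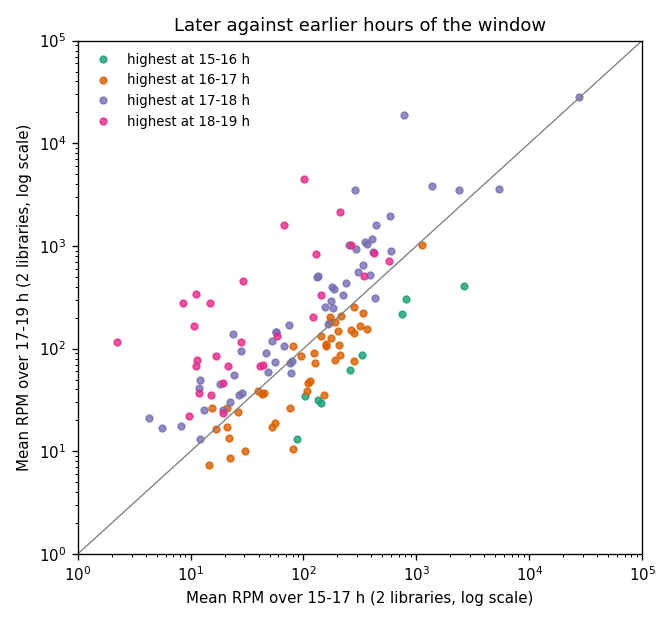
Mean RPM over 17-19 h (y axis) against mean RPM over 15-17 h (x axis) for the 137 TSCs, both on log axes, coloured by the hour of the maximum; the grey line marks equal levels. The limma difference on the log2(RPM + 1) scale averages logs, so it is not the distance of a point from the line. It was positive for 88 TSCs and ran between 5.58 and −3.14.

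The extremes of that division spanned a large range. The late extreme was rank 6 (4784:5817621-5817663), with 3385 and 5613 RPM at 17-19 h against 55.9 and 146 RPM at 15-17 h, a log2 difference of 5.58 ± 0.56 (SE, 2 libraries each, limma adjusted p = 0.08). Rank 2 (4845:3264410-3264583) had 19044 and 18570.1 RPM against 445 and 1108 RPM, a log2 difference of 4.74 ± 0.57 (adjusted p = 0.13 by limma). The other 3 of the largest 5 late differences, at 4784:21381412-21381514, 4784:19267627-19267642 and 4784:19270084-19270111, were 5.00, 4.80 and 4.68 on the same scale.

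At the early extreme, 4929:11286744-11286801 on the + strand (gene FBgn0102468) had 55.1 and 3.72 RPM at 17-19 h against 154 and 131 RPM at 15-17 h, a log2 difference of −3.14 ± 1.06 (limma adjusted p = 0.25). Rank 8 (4770:2317507-2317575) had 664 and 155 RPM against 3855 and 1394 RPM, a difference of −2.85 ± 0.81 (adjusted p = 0.22 by limma). At 4929:8414756-8414761, 4784:4266651-4266669 and 4770:2328576-2328602 the differences were −2.83, −2.66 and −2.23. In none of these 10 promoters did the pairs overlap, and none passed the adjusted threshold in limma over all 4 libraries. Under alternatives some did. Rank 6 passed in limma without a filter on low values (adjusted p = 0.01581). DESeq2 called 8 of the 10, all but those at 4929:11286744-11286801 and 4770:2328576-2328602. The 10 were picked as extremes in the same libraries, so no support is drawn from a pass. Leaving out a library sets 1 against 2, and no call is read from such a fit. The log2 difference of rank 6 then lay between 4.89 (without 15-16 h) and 6.26 (without 16-17 h).

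Many of the 137 promoters were neighbours. When members of different genes no more than 20 kb apart were joined, 52 TSCs (38.0%) fell into 20 runs of between 2 and 5 genes. The same count was 2 of 53 (3.77%) for TSCs chosen by the same rule at 11-15 h and 202 of 434 (46.5%) for those chosen at 19-23 h. For 26 of 137 members (19.0%) the nearest expressed TSC of another gene was itself a member, against 1.53% of the 7314 expressed gene-assigned TSCs with such a neighbour. In 7 of the 20 runs every TSC had the same peak hour, again 7 with TMM factors, and in 11 all lay on the same strand. Members peaked in only 4 libraries, and many runs hold only 2 genes, so unrelated members would also agree in part. No share for random sets of members is given beside these counts, and nothing is read from them. Position was not used by the rule, and no test was made of these shares, since the sets differ in size and neighbouring genes are not independent.

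One run lay at 4784:18517831-18526721, with 4 genes on the − strand within 8891 bp. In RPM all 4 were highest at 17-18 h, at 4270.0, 1460.3, 2053 and 122 RPM in order of position, and no other gene-assigned TSC with 20 RPM or more lay between them. With TMM factors only 2 of them were, while rank 5 was highest at 18-19 h and the weakest, at 18526706-18526721, at 16-17 h. Rank 5 and rank 12 belong to it. Another, 4784:19264916-19273778, held 5 genes on both strands within 8863 bp, all highest at 18-19 h, with TMM factors too. At 15-16, 16-17, 17-18 and 18-19 h the levels were 76.1, 57.9, 521 and 2668 RPM for the first, 1.62, 2.86, 39.3 and 194 RPM for the next, 3.24, 18.1, 82.3 and 247 RPM for the one after it, 4.59, 12.4, 109 and 445 RPM for the fourth and 5.94, 23.5, 214 and 345 RPM for the fifth. Members facing in opposite directions thus shared the peak hour in this run. Between them also lay 1 gene-assigned TSC with 20 RPM or more that was not a member.

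Other runs mixed levels and hours. At 4770:430796-439891 the plateau promoter of rank 3 was followed by one at 433796-433982 on the − strand with 241, 443, 250.1 and 765 RPM in the window and one at 439804-439891 on the + strand with 328, 820.0, 312 and 1119.6 RPM. Both of these dipped at 17-18 h, the hour in which rank 3 was highest. On 4644 a pair on the + strand, at 1063856-1063883 and 1070524-1070550, was highest at 17-18 h at 41.8 and 820.1 RPM. One longer stretch, chosen after its values were seen, was 4770:2178587-2409784. Of its 18 expressed gene-assigned TSCs over 231 kb, 12 (66.7%), of 9 genes, were members, 9 of them on the + strand, and it held both rank 1 and rank 8. Of these members 3 were highest in the library of 15-16 h, 2 in that of 16-17 h, 6 in that of 17-18 h and 1 in that of 18-19 h, and 1 TSC of the 11-15 h set and 2 of the 19-23 h set lay in the same stretch.

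Across the genome the 137 TSCs lay on 7 scaffolds, 37 on 4784, 26 on 4770, 21 on 4845, 20 on 4690, 16 on 4820, 14 on 4929 and 3 on 4644. Relative to the expressed gene-assigned TSCs of each scaffold these were shares between 1.01% on 4929 and 2.49% on 4784. By strand, 76 lay on the + strand and 61 on the − strand.

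The promoters were narrow. Their width, the span of the called cluster, had a median of 42 bp with quartiles of 24 and 103 bp, and 74 of 137 (54.0%) spanned less than 50 bp, against 15.1% of the 7186 other expressed gene-assigned TSCs, whose median was 102 bp. Narrow clusters were also frequent at the neighbouring times, 30 of 53 (56.6%, median 43 bp) in the 11-15 h set and 292 of 434 (67.3%, median 28 bp) in the 19-23 h set. By peak hour the median width was 64 bp for the 9 TSCs of 15-16 h, 32.5 bp for those of 16-17 h, 46 bp for 17-18 h and 43 bp for 18-19 h. Clusters were called on the pooled reads of all libraries, and over the 137 TSCs width and maximum RPM had a Spearman rho of 0.30, and stronger promoters tended to be called wider. The rho over all expressed gene-assigned TSCs was 0.29.

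In most member genes nearly all reads in the gene's TSCs lay in members. In 122 of the 130 genes over 90% of these reads, summed over the 23 libraries, fell in members, and in 5 less than 50% did. Only 14 of the 130 genes had any TSC that was not a member. In all the others the reads could fall in members only, so their share was fixed in advance. No share over other expressed genes is given beside these counts, so they describe these genes only. In 6 genes more than 1 TSC met the rule, which gave 13 TSCs. In all 6 the strongest of them lay upstream on the gene's strand, and each of the 7 weaker ones downstream was wider than it. Their mean levels over 15-19 h were 0.311%, 2.62%, 3.41%, 8.19%, 14.4%, 18.2% and 42.4% of the strongest of the same gene. Rank 1 was one of these genes: its second TSC, 4770:2178587-2178731, was highest in the same hour, at 182 RPM against 47565 RPM at the upstream one. The largest ratio was at 4845, where 12553759-12554165, 407 bp wide, reached 208 RPM and 12552765-12552809, 45 bp wide, reached 347 RPM. Of the 7 downstream TSCs, 4 had the same peak hour as the strongest TSC of their gene.

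In 8 genes a member stood beside another TSC of at least 20 RPM outside the rule, 9 such TSCs in all. RPM measures the RNA present, so at 0-1 h maternally deposited RNA cannot be told apart from new transcription. In a gene on the − strand of 4690 the RNA of the 2 promoters was highest at different times. Its member at 12565728-12565758 had 0.0720 RPM at 0-1 h, 1.33 at 9-10 h and 123 at 17-18 h, with a maximum of 323 RPM, while the TSC 5394 bp away at 12571108-12571167 had 43.7, 6.11 and 0.633 RPM in the same libraries. The member gave 99.4% of the RPM of both over 15-19 h and 3.03% over 0-3 h. On the + strand of 4820 a narrow member at 901717-901734, with 36.7 RPM at 17-18 h and a maximum of 85.7 RPM, lay 432 bp from a broader TSC at 901239-901347 that had 75.4 RPM at 0-1 h and 7.60 RPM at 17-18 h. In this gene the member gave 81.4% of the RPM of both over 15-19 h, against 1.27% over 0-3 h.

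A gene on the − strand of 4770 had 3 promoters. The member at 623932-623991 reached 387 RPM and had 0.432 RPM at 0-1 h and 182 RPM at 17-18 h. The TSC at 635119-635378 was highest at 0-1 h, at 48.8 RPM, and still had 26.0 RPM at 17-18 h. The TSC at 626162-626423 had 41.1 RPM at 9-10 h and 40.5 RPM at 17-18 h, and its maximum of 57.3 RPM fell at 16-17 h. Rank 8 had a second TSC 972 bp downstream at 2318467-2318560, which reached 104 RPM at 14-15 h. The other 4 genes differed among themselves. On the − strand of 4690 the member at 18335162-18335374 (maximum 60.2 RPM) stood beside a stronger TSC at 18373398-18373663, highest at 16-17 h at 359.7 RPM, and gave 8.40% of the RPM of both over 15-19 h. On the same strand the member at 5209177-5209355 (maximum 24.1 RPM) gave 6.51% beside 5224904-5225039, highest at 18-19 h at 279 RPM. In these genes both promoters were thus highest within the window. On the − strand of 4770 the member at 10088689-10088712 (maximum 31.7 RPM) gave 71.7% beside 10091006-10091171, highest at 2-3 h at 65.3 RPM. On the + strand of 4845 the member at 16354562-16354569 (maximum 27.6 RPM) gave 75.1% beside 16352805-16352837, highest at 20-21 h at 57.1 RPM.

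Low activity of the same promoters was also seen in hours well before the window. At 1-2 h 126 of 137 TSCs (92.0%) were above both 0-1 h and 2-3 h, at a median of 2.44% of their mean over 15-19 h with quartiles of 1.77% and 3.09%. This share was 43 of 53 (81.1%) in the 11-15 h set, 123 of 434 (28.3%) in the 19-23 h set and 33.4% of the expressed gene-assigned TSCs. At 10-11 h 97 of 137 (70.8%) were above both 9-10 h and 11-12 h, at a median of 4.81%, against 5.66% of the 11-15 h set, 5.07% of the 19-23 h set and 22.9% of the expressed TSCs. With TMM factors the counts were 125 and 98. The strongest promoter had 58.7, 1028 and 25.0 RPM at 0-1, 1-2 and 2-3 h and 485, 1392 and 942 RPM at 9-10, 10-11 and 11-12 h. Rank 3 had 1.37, 180 and 2.80 RPM in the first 3 of these hours and 51.8, 259 and 19.0 RPM in the others. These libraries are among the 20 that the rule used.

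The order of the members at those early hours was compared with their order in the other libraries. Over the 137 TSCs the levels at 1-2 h had a Spearman rho of 0.90 with those at 10-11 h and of 0.81, 0.88, 0.90 and 0.79 with the 4 libraries of the window. The rho was also 0.82 with 8-9 h and 0.83 with 9-10 h, and it was 0.64 with 0-1 h and 0.49 with 2-3 h. The levels at 10-11 h had a rho of 0.81, 0.85, 0.87 and 0.71 with the libraries of the window, 0.84 with 8-9 h and 0.83 with 9-10 h. These values are across TSCs that share the same libraries, their depths and the pooling of all samples, and they describe these libraries only. Whether RNA or reads of later samples have a part in the early levels was not tested.

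**Figure D5:**
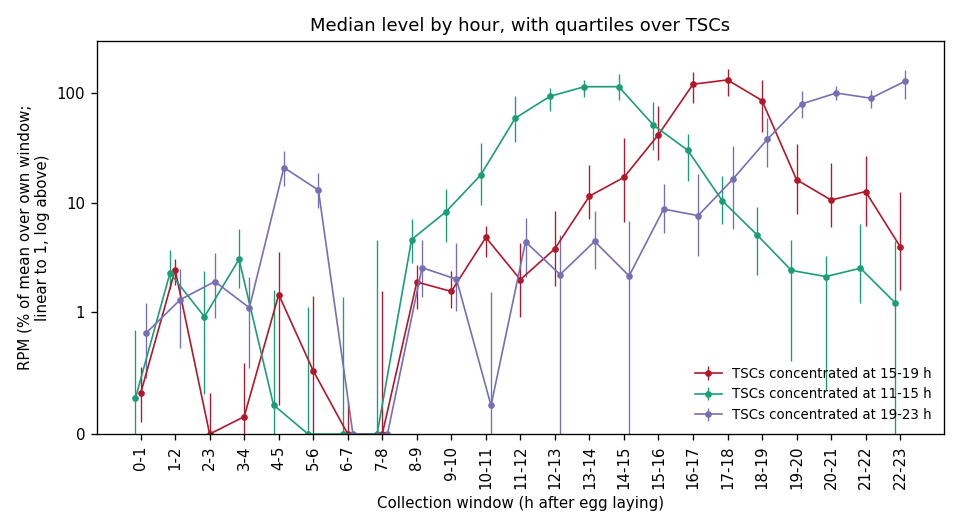
Median over TSCs, with quartiles as vertical bars, of RPM as a percentage of each TSC's own mean over its window, for the 137 TSCs concentrated at 15-19 h (red), the 53 at 11-15 h (green) and the 434 at 19-23 h (purple), against hours after egg laying (y axis linear up to 1 and logarithmic above). The red line has small rises at 1-2 h (2.44%), 4-5 h (1.45%) and 10-11 h (4.81%). The green line also rises at 1-2 h (2.28%), and the purple line has its early rise at 4-5 h (20.9%).

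The libraries at 4-5 and 5-6 h were left out of the choice, so levels there are free of it, although the low level of the flanking hours 3-4 and 6-7 h is not. At 4-5 h 94 of 137 TSCs (68.6%) were above both flanking hours, at a median of 1.45% of their window mean, against 34.2% of the expressed gene-assigned TSCs, 17.0% of the 11-15 h set and 98.8% of the 19-23 h set, in which the median was 20.9%. At 5-6 h it was 70 of 137 (51.1%), at a median of 0.520%, against 36.7% of the expressed gene-assigned TSCs, 13.2% of the 11-15 h set and 95.9% of the 19-23 h set. The members were thus between the other sets, and low. Over the 137 TSCs the 4-5 h levels had a Spearman rho of 0.86 with those at 20-21 h, 0.84 with 19-20 h and 0.83 with 0-1 h.

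By limma on log2(RPM + 1), with 4-5 and 5-6 h against 3-4 and 6-7 h, 36 of 10605 TSCs (0.339%) were called higher and 1 (0.00943%) lower. Only 44 members had a mean of at least 2 RPM over these 4 libraries, and since the rule keeps the flanks low, they passed mainly through 4-6 h. Among them 1 was called higher and 0 lower. The rule keeps the flanks low, so the p-values and calls of members here are not independent of the choice. No count over the members and no single call is read from this. The one called was 4690:6982909-6982946 on the + strand, with 46.0 and 27.5 RPM at 4-5 and 5-6 h against 0.526 and 0 RPM at 3-4 and 6-7 h, a log2 difference of 4.89 ± 0.60 (SE, 2 libraries each, limma adjusted p = 0.04). Its maximum was 723 RPM at 17-18 h, and it kept 216 RPM at 19-20 h. The call was lost in limma without 4-5 h or without 5-6 h, with a pseudocount of 0.1 RPM, with a minimum mean of 10 RPM and with TMM factors, and in the edgeR test, where 0 TSCs were called, while the log2 difference stayed between 4.53 and 7.16. Over all alternatives its adjusted p was between 4.259e-06 (DESeq2) and 0.865 (limma without 4-5 h).

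The 5 members with the highest mean over 4-6 h were ranks 1, 2, 6, 12 and 32, the last being the one called. Rank 1 had 323 and 313 RPM at 4-5 and 5-6 h against 167 and 73.3 RPM at 3-4 and 6-7 h. Rank 2 had 304 and 95.8 RPM against 10.0 and 0.771 RPM, and rank 6 had 167 and 57.3 RPM against 6.49 and 0.771 RPM, with limma adjusted p-values of 0.0514 and 0.0502. The flanks that the rule keeps low enter these p-values too. Rank 12 had 110.5 and 13.2 RPM against 1.23 and 0.771 RPM. Rank 3, the plateau promoter, had only 0.884 and 7.71 RPM, against 3.51 and 16.2 RPM in the flanks, and rank 8, the early one, had 0 and 0.551 RPM against 21.8 and 13.1 RPM. Of these promoters, ranks 1, 2, 6 and 12 had both 4-6 h libraries above both flanks, rank 3 overlapped and rank 8 had both below.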

How the data were processed

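RAMPAGE libraries of 23 one-hour windows of *D. erecta* embryogenesis were analysed, 1 library per window. The authors mapped the reads with STAR (version not given in the sources used here) to FlyBase release 1.3, called TSCs with a custom peak caller on the reads of all libraries pooled, and discarded rDNA clusters. The deposited RPM values scale reads to 1000000 reads in TSCs. Divided by the smallest value of its library, each of the 379172 values above 0 came out whole within 0.01 reads (100%), which gave back whole reads. The authors also deposited a gene table in RPM, which was used only to match genes to its rows by identical reads, and an aligned gene table holding a score per gene and TSC positions with a score, neither score being used. Of the 130 genes, 85 (65.4%) matched 1 row of the gene table, which carries identifiers and no names. Positions were written 1-based.

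A count of 0 allows up to 3 reads, which is 0.216 RPM at 0-1 h and 21.1 RPM at 7-8 h. At 7-8 h 93 members had no read. Contrasts were fitted with limma 3.58.1 (trend) in R 4.3.3 on log2(RPM + 1), over TSCs with a mean of at least 2 RPM, which understates changes of low TSCs. edgeR 4.0.16 and DESeq2 1.42.0 on the recovered reads, a pseudocount of 0.1 RPM, no filter, a mean of at least 10 RPM, TMM factors and leaving out each library were the alternatives. The fits were tested on simulated data in which the 2 libraries of a pair had the same mean. Real neighbouring hours change with time, so that test does not show how the fits behave on them. Descriptive values were computed in Python 3.11.15. The TSCs named were the 15 with the highest mean RPM over 15-19 h, the 5 largest differences each way within the window (no TSC was called there, so these are uncalled), the 5 highest at 4-6 h, those at the limits, and genes with 2 promoters. The members and lists were chosen with earlier results of these data known.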

Additional observations from a re-analysis of the deposited data

Results flagged for a closer look

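TSCs that no gene was assigned to could not be members and are not described above, although they were among all the TSCs tested with limma. Of them, 48 met the same limits of level and timing, which was 3.82% of the 1256 such TSCs that reached 20 RPM. Their maxima lay between 21.5 and 2849 RPM with a median of 39.5 RPM, with 4 in the library of 15-16 h, 24 in that of 16-17 h, 15 in that of 17-18 h and 5 in that of 18-19 h. Only 2 lay within 1 kb of a member and 9 within 20 kb. The strongest, at 4784:7024430-7024638 on the − strand, was highest at 15-16 h and lay 96680 bp from the nearest member. Their median width was 45.5 bp, and 26 (54.2%) spanned less than 50 bp.

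The library of 7-8 h entered neither the choice nor a comparison. It held 194 reads of the 137 TSCs, 0.136% of its reads in TSCs (95% Wilson interval 0.119% to 0.157%), where a count of 0 would allow 3 reads. Of these reads 42.8% came from the highest TSC, and 44 members had at least 1 read.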

How the results depend on the processing

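The number of members stayed within 1.5 times of 137 under all alternatives but one, a limit of more than 50% in place of 60%, which gave 218. It was 158 and 116 with maxima of at least 10 and 50 RPM, 130 over all 23 libraries and 157 with TMM factors (135 shared), between 98 and 179 when single libraries were left out, and 145 when 1-2 and 10-11 h were left out as well, a choice made after seeing the data. The comparison of 17-19 h with 15-17 h, with 0 calls in limma, gave 2 members higher and 6 and 1 TSCs in all higher and lower without a filter, and with DESeq2 30 and 4 members and 311 and 82 TSCs. Leaving out single libraries gave 0 to 21 members and 0 to 75 TSCs higher, and 0 members and 0 to 13 TSCs lower. The comparison of 4-6 h with its flanks, with 36 and 1 TSCs and 1 and 0 members, gave 0 calls of either kind with a pseudocount of 0.1 RPM, a mean of at least 10 RPM, TMM factors and edgeR. It gave 5 and 1 members and 224 and 6 TSCs without a filter, and 15 and 1 members and 364 and 32 TSCs with DESeq2. Leaving out single libraries gave 0 to 15 members and 0 to 583 TSCs higher, and 0 to 1 members and 0 to 109 TSCs lower. The cause was not tested. The rule used libraries of both comparisons, so no count over the members is read from either.

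Of the 22 promoters compared (the strongest 15 and the extremes), 5 changed direction between the later and the earlier pair under some alternative. Rank 1, at −0.41 on the log2 scale, was at 0.37 with edgeR, 0.40 with DESeq2 and between −1.67 and 0.85 when single libraries were left out. In the same way rank 3 (−1.04) ranged from −2.25 to 0.17, rank 4 (0.26) from −0.76 to 1.27, rank 11 (0.07) from −0.75 to 0.88 and rank 15 (1.04) from −0.18 to 2.26. None of these 5 was called under any alternative. The search for TATA-like motifs was not run, since no genome of release 1.3 was used here. No paired analysis was possible because each window has 1 library and the labels carry no replicate numbers.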
